A study of Mus musculus with 6 samples.

Results

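Granzymes are the serine proteases that cytotoxic lymphocytes store in secretory granules, and perforin, encoded by Prf1, is the pore-forming protein that lets them reach the inside of a target cell. All probe sets of the array whose annotated symbol starts with Gzm or is Prf1 were taken, which gave 12 of 12488 probe sets, 11 for granzymes and 1 for perforin. Of these, 11 carried 1 symbol and stood for 9 genes (Gzma, Gzmb, Gzmc, Gzmd, Gzmf, Gzmg, Gzmk, Gzmm and Prf1), and 1 carried both Gzme and Gzmd and is not named for a gene.

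The arrays compared 3 subsets of IEL, or intraepithelial lymphocytes, T cells lodged among the epithelial cells that line the gut, sorted from the small intestine of untreated C57BL/6 mice under 8 weeks of age. TCRab CD8ab IEL carry the alpha-beta T cell receptor and the CD8 form of conventional cytotoxic T cells, TCRab CD8aa IEL carry the same receptor type with the CD8 alpha homodimer, and TCRgd CD8aa IEL carry the gamma-delta receptor with that homodimer. There were 6 arrays, 1 per subset in each of 2 experiments. The 3 subsets of an experiment came from 1 pool of cells of 20 mice, so a value describes a pool and not a mouse. The titles of the gamma-delta samples write TCRgb, and the source descriptions, which write TCRgd, were followed. The values are signals of Affymetrix arrays as MAS5 computed them, on a linear scale; log2 values below are of these signals, with those under 15.3, the 20th percentile of all values, set to that floor.

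Granzyme A cleaves after basic residues and granzyme B after aspartate, the latter activating the caspases of the target cell. Granzyme K has the basic specificity of granzyme A, and its gene lies next to Gzma on chromosome 13. The other granzyme genes of the mouse form a cluster on chromosome 14, in the order Gzmb, Gzmc, Gzmf, Gzmn, Gzmg, Gzmd and Gzme in the RefSeq annotation of GRCm38.p6, and Gzmm and Prf1 lie apart from each other on chromosome 10. Granzymes A and B are well known as abundant products of IEL, and activated cytotoxic T cells are known to make more granzyme and perforin messenger RNA than naive ones.

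The sequences before the start of 4 of the genes are shown because Gzmk and Gzma are neighbours whose values differed between subsets in unlike ways, and because Gzmb and Prf1 encode the pair of proteins most used in killing. They are RefSeq sequences of GRCm38.p6, written 5′ to 3′ on the strand of the gene and ending at the base before its first annotated base. For Gzmk, Gzma and Gzmb they are 250 bases long, and for Prf1 165 bases. Capitals mark matches, on either strand, to 4 motifs chosen with the values known. They are TGTGGT for Runx factors, TCACACC for T-box factors such as T-bet and eomesodermin, TGANTCA for AP-1, and, for interferon regulatory factors, GAAA and GAAA with any 2 bases between them.
Gzmk (chr13:113180966-113181215, minus strand): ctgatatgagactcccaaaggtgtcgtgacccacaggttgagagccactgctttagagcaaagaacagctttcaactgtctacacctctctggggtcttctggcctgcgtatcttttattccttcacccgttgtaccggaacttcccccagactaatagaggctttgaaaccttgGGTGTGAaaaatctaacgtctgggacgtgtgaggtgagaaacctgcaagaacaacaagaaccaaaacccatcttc
Gzma (chr13:113100982-113101231, minus strand): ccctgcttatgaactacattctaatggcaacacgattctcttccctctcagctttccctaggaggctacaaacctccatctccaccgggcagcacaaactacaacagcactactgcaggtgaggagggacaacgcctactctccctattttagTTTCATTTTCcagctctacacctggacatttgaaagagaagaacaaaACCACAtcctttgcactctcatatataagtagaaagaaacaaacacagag
Gzmb (chr14:56262335-56262584, minus strand): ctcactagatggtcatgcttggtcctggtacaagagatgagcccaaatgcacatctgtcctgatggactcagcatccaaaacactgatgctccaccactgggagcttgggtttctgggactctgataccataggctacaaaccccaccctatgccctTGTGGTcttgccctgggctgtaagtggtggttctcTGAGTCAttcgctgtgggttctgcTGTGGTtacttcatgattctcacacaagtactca
Prf1 (chr10:61297586-61297750, plus strand): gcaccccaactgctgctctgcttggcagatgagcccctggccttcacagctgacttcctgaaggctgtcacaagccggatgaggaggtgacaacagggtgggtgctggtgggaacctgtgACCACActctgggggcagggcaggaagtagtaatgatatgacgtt
The Gzmk sequence held 1 T-box match, which began 75 bases before the gene, and no match to the other motifs. The Gzma sequence held 1 Runx match, which began 50 bases before the gene, and 1 match to the motif of interferon regulatory factors, which began 97 bases before it. The Gzmb sequence held 2 Runx matches and 1 AP-1 match between them, and the Prf1 sequence held 1 Runx match. No match overlapped another. Among the 250-base windows of 27025 promoters, 14.2% held the Runx letters, 3.31% the T-box letters, 6.87% the AP-1 letters and 3.04% those of interferon regulatory factors. Over the first 165 bases of these windows, counted from their 5′ end, 9.53% held the Runx letters. The 165 bases of Prf1 end at the start of its gene, so the positions compared need not be the same. A match is a run of letters and not a measured site.

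The 2 experiments differed in ways that touch every value below. For beta-actin, the signal of the 3′ control probe set over that of the 5′ one, a ratio that is high where the labelled RNA is short, ran from 1.41 to 1.76 across the arrays of experiment 1. It ran from 40.4 to 52.2 in those of experiment 2. Limma, with the experiment as a term beside the subset, called 2827 of 8299 tested probe sets between experiments, or 34.1%. Each experiment was 1 pool, so the p-values behind this count do not measure the spread between pools. T cell markers were present on all arrays. Cd3g, a chain of the receptor complex, had signals of 17632 to 27658 in experiment 1 and 7597 to 10237 in experiment 2. Cd247, the zeta chain of that complex, was lower in TCRab CD8aa (366 and 135) than in TCRab CD8ab (1345 and 552) in experiments 1 and 2, a log2 difference of -1.96 ± 0.39 that did not pass (limma adjusted p = 0.0675 with the block). The TCRgd CD8aa array of experiment 2 stood apart. The summed signal of 7 enterocyte markers was 23649 on it against 676 to 1931 on the other 5 arrays. Of these markers Epcam, the gene of an epithelial adhesion molecule, also differed between subsets. Its signals were 75.9 and 38.1 in TCRab CD8ab, 617 and 517 in TCRab CD8aa, and 351 and 694 in TCRgd CD8aa. The plasma cell gene Jchain had a signal of 4023 there against 61.8 to 678 elsewhere. The mast cell proteases Mcpt1 and Mcpt2 had 332 and 245 there, against at most 57.5 and 23.8 on the other arrays. The part of these markers in the granzyme signals of that array was not tested.

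**Figure D1:**
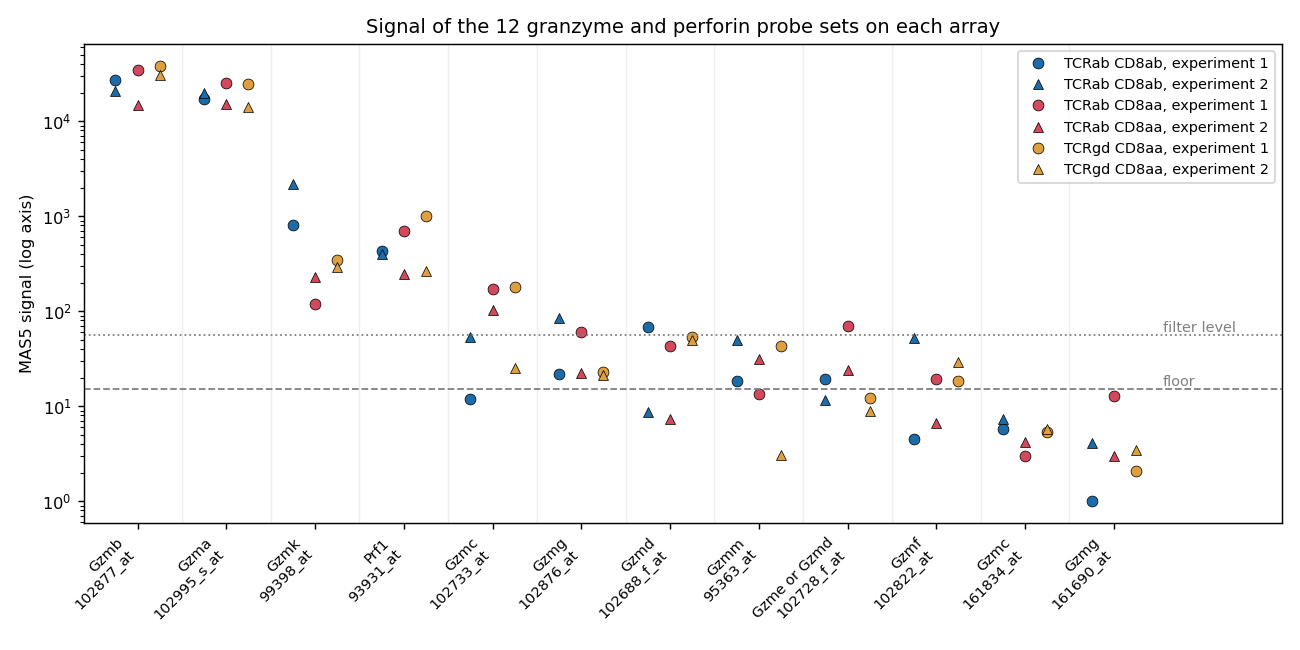
MAS5 signal on a log axis of each of the 12 probe sets, with 1 point per array, coloured by subset and shaped by experiment; the dashed line is the floor of 15.3 and the dotted line the filter level of 56.4. Gzmb and Gzma lie between 14116 and 38418 on all 6 arrays, Gzmk is highest on both TCRab CD8ab arrays, and 2 probe sets lie below the floor throughout.

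A probe set was tested if at least 2 arrays exceeded a signal of 56.4, the 40th percentile of all values. Of the 12, 6 passed, namely 1 probe set each of Gzma, Gzmb, Gzmk, Prf1, Gzmc and Gzmg. The first 4 of these exceeded that level on all 6 arrays. The other 6 probe sets did not pass. The 161834_at probe set of Gzmc and the 161690_at probe set of Gzmg were under the floor on every array, with highest signals of 7.4 and 12.9. Gzmd had signals of 7.3 to 68.3, Gzmf of 4.5 to 52.3, Gzmm of 3.1 to 50.4, and the probe set of Gzme and Gzmd 8.9 to 70.5. Each of these 4 had 2 or 3 arrays under the floor, so their levels were near the background of the array in all subsets and no fold is given. The probe sets of Gzmd and of Gzme with Gzmd are of the type whose probes match several genes of a family, and a signal there need not come from the gene named.

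Gzmb and Gzma RNA was strong in all 3 subsets, and no difference between subsets in either gene passed the test in any comparison. Gzmb had signals of 27197 in experiment 1 and 20994 in experiment 2 in TCRab CD8ab, 34868 and 15010.1 in TCRab CD8aa, and 38418 and 30762 in TCRgd CD8aa. Its highest value in each experiment was that of TCRgd CD8aa, whose 2 arrays both lay above both TCRab CD8ab arrays. Both arrays of TCRgd CD8aa were higher than both of TCRab CD8ab for 9.39% of all tested probe sets, and lower for 10.4%. The log2 difference of Gzmb in TCRgd CD8aa minus TCRab CD8ab was 0.52 ± 0.34 (SE of the fit with the experiment as a block, as for every comparison of subsets here, n = 2), a 1.44-fold difference, with a 95% interval of -0.24 to 1.29 in log2 units and a limma adjusted p of 0.723 with the block. The folds in the 2 experiments were 1.41 and 1.47. Without the TCRgd CD8aa array of experiment 2 the log2 difference was 0.29.

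Against TCRab CD8aa, Gzmb in TCRgd CD8aa was 1.10-fold higher in experiment 1 and 2.05-fold higher in experiment 2, with a log2 difference of 0.59 ± 0.34. The groups overlapped. Between the TCRab subsets the direction of Gzmb turned between experiments. TCRab CD8aa was 1.28-fold higher than TCRab CD8ab in experiment 1 and 1.40-fold lower in experiment 2. The mean log2 difference was -0.06, with a 95% interval of -0.83 to 0.70 in the blocked fit, so a difference anywhere in that range would fit the values.

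Gzma had signals of 17092 in experiment 1 and 19713 in experiment 2 in TCRab CD8ab, 25511.5 and 15163 in TCRab CD8aa, and 24463 and 14116 in TCRgd CD8aa. TCRab CD8ab was thus the lowest subset in the first experiment and the highest in the second. The fold between TCRab CD8aa and TCRab CD8ab was 1.49 and 1.30 in the respective experiments, in opposite directions. Both CD8aa subsets gave nearly the same value in each experiment, with folds of 1.04 and 1.07 between them. The log2 difference of TCRgd CD8aa minus TCRab CD8aa was -0.08, with a 95% interval of -0.86 to 0.69 in the blocked fit. The log2 differences from TCRab CD8ab were 0.10 ± 0.34 for TCRab CD8aa and 0.02 ± 0.34 for TCRgd CD8aa (SE, n = 2), with limma adjusted p of 0.939 and 0.998 with the block.

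Prf1, the gene of perforin, showed the same turn as Gzma. It had signals of 427 in experiment 1 and 396 in experiment 2 in TCRab CD8ab, 699.9 and 245 in TCRab CD8aa, and 1005 and 263 in TCRgd CD8aa. The TCRab CD8ab arrays lay close together, with an SD of 0.08 in log2 units, while those of TCRab CD8aa and TCRgd CD8aa had SDs of 1.07 and 1.37 (n = 2). In experiment 1 the CD8aa subsets were 1.64-fold and 2.35-fold higher than TCRab CD8ab, and in experiment 2 they were 1.61-fold and 1.51-fold lower. No comparison between subsets passed for Prf1. Its log2 differences were 0.01 ± 0.46 for TCRab CD8aa and 0.32 ± 0.46 for TCRgd CD8aa against TCRab CD8ab, and 0.31 ± 0.46 between the CD8aa subsets (SE, n = 2). The 95% interval in TCRgd CD8aa minus TCRab CD8ab ran from -0.71 to 1.35 in the blocked fit, or from 0.612-fold to 2.56-fold. Without the TCRgd CD8aa array of experiment 2 that log2 difference was 0.88 (adjusted p = 1.00). A smaller number of perforin-expressing cells in a sort and less RNA in each cell cannot be told apart in any of these bulk values.

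Gzmk was the 1 member with a difference between subsets that passed in either fit. It was highest in TCRab CD8ab in both experiments, and both CD8aa subsets had less. TCRab CD8ab had signals of 801 in experiment 1 and 2194 in experiment 2. TCRab CD8aa had 120.0 and 231, and TCRgd CD8aa had 349 and 293. Neither CD8aa subset overlapped TCRab CD8ab, and the order TCRab CD8ab, TCRgd CD8aa, TCRab CD8aa was the same in both experiments.

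In TCRab CD8aa minus TCRab CD8ab the log2 difference of Gzmk was -2.99 ± 0.44 (SE of the blocked fit, n = 2), a 7.96-fold lower signal, with a 95% interval of 3.98-fold to 15.9-fold. It was 6.68-fold lower in experiment 1 and 9.48-fold lower in experiment 2. Limma called it in the blocked fit (adjusted p = 0.0185), the only 1 of the 6 tested members so called, where 0.819% of all 8299 probe sets were called and 0.301% called lower. Both arrays of TCRab CD8aa were lower than both of TCRab CD8ab for 12.8% of all tested probe sets. The fit without the block, which was the main fit, did not call it (adjusted p = 0.772) and called 0 of all probe sets, with 187 at an unadjusted p under 0.05. The call with the block also ended without TCRab CD8aa replicate 1 (adjusted p = 0.0756) or 2 (0.0754), without TCRab CD8ab replicate 2 (0.113), with dim probe sets kept (0.56) and with no intensity trend (0.153). In these settings the log2 difference lay between -2.44 and -3.17. Epcam moved with this contrast in the opposite direction and was called in the blocked fit, with log2 differences of 3.39 ± 0.50 in TCRab CD8aa (limma adjusted p = 0.0185) and 3.20 ± 0.50 in TCRgd CD8aa (0.0281) against TCRab CD8ab. Over the 7 enterocyte markers the median was -0.12 in TCRab CD8aa and 2.48 in TCRgd CD8aa. The part of these markers in the Gzmk differences was not tested.

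In TCRgd CD8aa minus TCRab CD8ab the log2 difference of Gzmk was -2.05 ± 0.44 (SE of the blocked fit, n = 2), a 4.15-fold lower signal. It was 2.30-fold lower in experiment 1 and 7.49-fold lower in experiment 2. This difference did not pass, with limma adjusted p of 0.126 with the block and 1.00 without it. None of the 6 members passed in this comparison, with 1 at an unadjusted p under 0.05 in each fit, where the block called 0.554% of all probe sets, 0.337% higher and 0.217% lower. Without the TCRgd CD8aa array of experiment 2, on which the epithelial markers were raised, the blocked log2 difference was -1.33. It was -2.78 without the TCRgd CD8aa array of experiment 1, and -2.61 without TCRab CD8ab replicate 1. Each of these settings leaves 1 subset with a lone array. Gzmk in TCRgd CD8aa was 2.91-fold and 1.27-fold higher than in TCRab CD8aa, with a log2 difference of 0.94 ± 0.44 and a 95% interval of -0.06 to 1.94 in the blocked fit, and this comparison did not pass either (adjusted p = 1.00 in both fits). In that comparison the block called 0.0241% of all probe sets (0.012% higher and 0.012% lower) and none of the members, with 0 at an unadjusted p under 0.05. Both arrays of TCRgd CD8aa lay above both of TCRab CD8aa for Gzmk, as for 7.78% of all tested probe sets, while 6.64% lay below. The 2 comparisons with TCRab CD8ab share its arrays and are not independent of each other.

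The neighbouring genes Gzma and Gzmk thus had unlike values in the same samples. Between the TCRab subsets the blocked 95% intervals of their log2 differences, -0.68 to 0.87 for Gzma and -3.99 to -1.99 for Gzmk, did not overlap. The difference between the genes was not itself tested. The sequences shown above for the pair shared none of the 4 motifs. The T-box letters were in that of Gzmk, and the letters for Runx and interferon regulatory factors in that of Gzma. The part of these letters in the values was not tested. Values of the T-box gene Eomes and of Runx1 are given below.

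**Figure D2:**
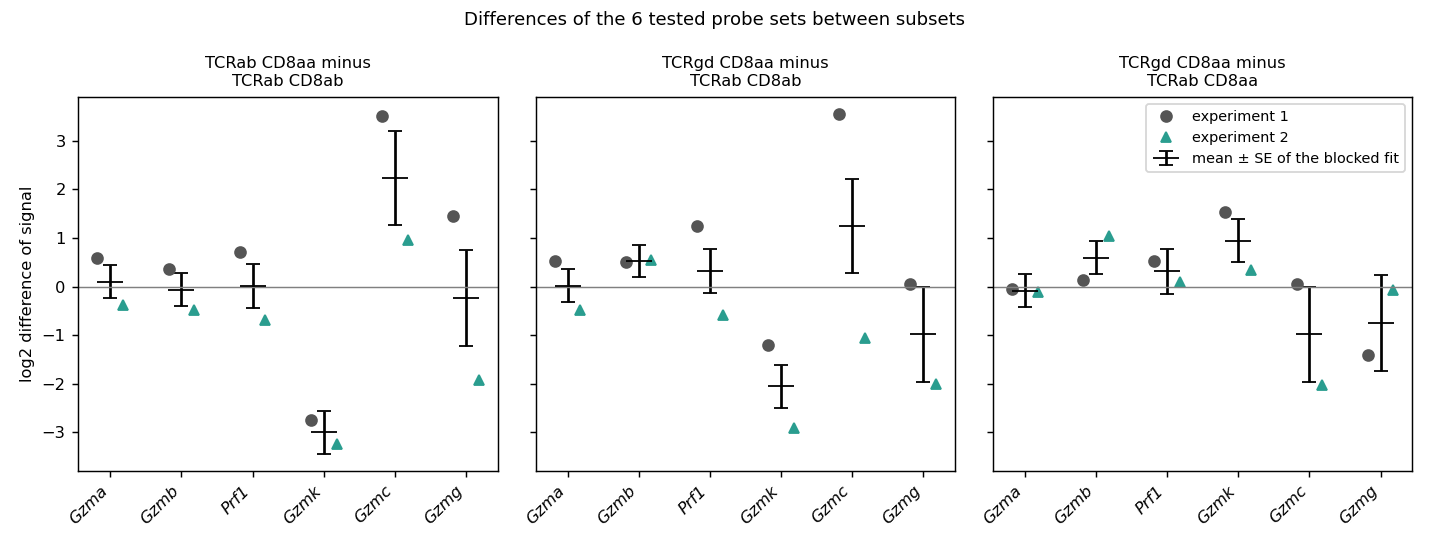
Log2 difference of signal between subsets for the 6 tested probe sets, with 1 panel per comparison; circles and triangles are the values within experiments 1 and 2, and the bar is their mean ± SE of the blocked fit. Gzmk lies at -2.74 and -3.25 in the left panel, while Gzma, Gzmb and Prf1 lie on opposite sides of 0 in the 2 experiments there.

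Gzmc, a granzyme of strongly stimulated killer cells, was dim, and its values did not hold together between experiments. It had signals of 11.8 and 53.2 in TCRab CD8ab, 173 and 103 in TCRab CD8aa, and 179.7 and 25.4 in TCRgd CD8aa, in experiments 1 and 2. Since the first of these lay under the floor, Gzmc in experiment 1 was at least 11.3-fold higher in TCRab CD8aa and at least 11.7-fold higher in TCRgd CD8aa than in TCRab CD8ab. In experiment 2 it was 1.94-fold higher in TCRab CD8aa and 2.09-fold lower in TCRgd CD8aa. Both TCRab CD8aa arrays lay above both TCRab CD8ab arrays, as for 10% of all tested probe sets. Gzmc exceeded the filter level on both TCRab CD8aa arrays and the TCRgd CD8aa array of experiment 1 and on neither TCRab CD8ab array, so it was tested because it was high there, and its direction is a description. The difference of 2.23 ± 0.97 in log2 units (SE of the blocked fit, n = 2) did not pass (limma adjusted p = 0.491 with the block). Gzmg had signals of 22.0 and 85.7, 60.4 and 22.5, and 22.7 and 21.3 in TCRab CD8ab, TCRab CD8aa and TCRgd CD8aa. It exceeded the filter level on 2 arrays, of different subsets and experiments, and passed in no comparison.

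Across the 6 tested members, 2 had the same sign in both experiments in TCRab CD8aa minus TCRab CD8ab (Gzmc higher, Gzmk lower), where 53% of all probe sets did. In TCRgd CD8aa minus TCRab CD8ab there were again 2 (Gzmb higher, Gzmk lower), against 51.5%. In TCRgd CD8aa minus TCRab CD8aa there were 5, against 48.7%, with Gzmb, Gzmk and Prf1 higher and Gzma and Gzmg lower. These counts describe the members that passed the filter and not all 12, and Gzmc passed it through CD8aa arrays alone.

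Between the 2 experiments, 1 of the 6 members passed. Each experiment was 1 pool, so the SE and p-values of this contrast measure how far the change varied among subsets. They do not measure the spread between pools. Prf1 was lower in experiment 2, with a log2 difference of -1.18 ± 0.37 (SE, limma adjusted p = 0.0364), where 20.4% of all probe sets were called lower. From experiment 1 to 2 its signal went from 427 to 396 in TCRab CD8ab, from 699.9 to 245 in TCRab CD8aa and from 1005 to 263 in TCRgd CD8aa. The call ended without either TCRab CD8aa array (adjusted p = 0.15 and 0.152) or either TCRgd CD8aa array (0.211 and 0.195), after quantile normalization (0.0763), with dim probe sets kept (0.243) and with no intensity trend (0.0923). Gzmb and Gzma had -0.64 ± 0.28 and -0.45 ± 0.28, and Gzmk had 0.72 ± 0.36, none of which passed. After quantile normalization Gzmb was called in place of Prf1 (-0.82, adjusted p = 0.00485). Without the TCRgd CD8aa array of experiment 1 or 2 Gzmk was called in place of Prf1 (1.20 in each, adjusted p = 0.0411 and 0.0418). Over all tested probe sets the central 80% ran from -1.71 to 1.30. The actin ratio moved with these differences, and its part in them was not tested.

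The killing pathway around these genes was read from 7 lists with 67 tested genes, taking for each gene its brightest tested probe set. Of the 67, only Irf4 was called with the block, in both comparisons with TCRab CD8ab, and none without the block. Of all tested probe sets the block called 0.819% in TCRab CD8aa minus TCRab CD8ab, with 0.301% lower. In TCRgd CD8aa minus TCRab CD8ab it called 0.554%, with 0.217% lower. Irf4, a transcription factor whose level follows the strength of receptor signals, is in the list of transcription factors of cytotoxic genes. It had signals of 1761 and 4888 in TCRab CD8ab, 125 and 663 in TCRab CD8aa, and 183 and 1007 in TCRgd CD8aa. Both CD8aa subsets lay below TCRab CD8ab in each experiment. The log2 differences were -3.35 ± 0.36 for TCRab CD8aa (limma adjusted p = 0.00345 with the block) and -2.77 ± 0.36 for TCRgd CD8aa (0.0114). With any 1 array left out, the blocked log2 differences lay between -2.87 and -3.83 for TCRab CD8aa and between -2.29 and -3.26 for TCRgd CD8aa. Without the TCRgd CD8aa array with raised epithelial markers the latter was -3.03. The calls ended with dim probe sets kept (limma adjusted p of 0.522 and 0.483) and with no intensity trend (0.0918 and 0.175).

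Of the other 17 tested transcription factors none passed. Prdm1 encodes Blimp-1, a factor of terminal effector cells. Its log2 differences were 1.20 ± 0.35 for TCRab CD8aa and 1.25 ± 0.35 for TCRgd CD8aa, each minus TCRab CD8ab. Its groups did not overlap in either comparison, with both CD8aa arrays higher, as for 10% and 9.39% of all tested probe sets. Eomes, the gene of eomesodermin, had -2.55 ± 0.88 and -2.10 ± 0.88. Its signals were 141.0 and 133.6 in TCRab CD8ab, 35.7 and 1.7 in TCRab CD8aa, and 15.7 and 64.9 in TCRgd CD8aa. Runx1 had -0.39 ± 0.65 and -1.61 ± 0.65, the latter with -0.29 and -2.93 in experiments 1 and 2. Myb, a factor of cell renewal, had -3.00 ± 0.66 and -2.78 ± 0.66. In the blocked fit without the TCRgd CD8aa array of experiment 2, Myb had -3.00 in TCRab CD8aa and -3.51 in TCRgd CD8aa. Batf, Ifng and Ltb had -2.20, -2.20 and -1.51 in TCRab CD8aa there, the same as with all arrays. That fit leaves TCRgd CD8aa with a lone array, so its calls are not counted here. That setting was chosen after seeing the data. The median over the 18 factors was -0.25 in TCRab CD8aa and -0.28 in TCRgd CD8aa, beside -0.08 and -0.06 for all tested probe sets. In TCRab CD8aa 2 of them were higher and 10 lower in both experiments, and in TCRgd CD8aa 3 and 8. Of all tested probe sets 53% and 51.5% had the same sign in both experiments, in either direction.

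The genes of granule contents and processing were measured in 10 of 12, and none passed. In each comparison with TCRab CD8ab 2 had an unadjusted p under 0.05 in the blocked fit, where 837 of all 8299 probe sets did for TCRab CD8aa and 681 for TCRgd CD8aa. Their median log2 difference from TCRab CD8ab was 0.40 in TCRab CD8aa, with 6 higher and 1 lower in both experiments, and 0.26 in TCRgd CD8aa, with 4 higher and 0 lower. Of all tested probe sets 53% and 51.5% had the same sign in both experiments, in either direction. Ctsc, the protease that activates progranzymes, had signals of 2751 and 2816 in TCRab CD8ab, 4018 and 5575 in TCRab CD8aa, and 4267 and 5040 in TCRgd CD8aa. All 4 CD8aa arrays lay above both TCRab CD8ab arrays. Of all tested probe sets 10% had both TCRab CD8aa arrays above both TCRab CD8ab arrays, and 9.39% had both TCRgd CD8aa arrays above them. The log2 differences of Ctsc, 0.77 ± 0.28 and 0.74 ± 0.28, did not pass (limma adjusted p of 0.423 and 0.516 with the block). Srgn, the proteoglycan on which granzymes are packed, had log2 differences of 1.10 ± 0.40 and 0.97 ± 0.40, and Ctsw, a cathepsin of killer cells, 0.46 ± 0.28 in TCRab CD8aa. Cd63, a granule membrane tetraspanin that epithelial cells also make, had 1.55 ± 0.98 in TCRgd CD8aa, where its signals were 30.1 and 560.0, the latter on the array with raised enterocyte markers.

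The release machinery was measured in 10 of 17 genes and none passed, with medians of 0.25 in each CD8aa subset against TCRab CD8ab. Stx7, a protein of late endosome fusion, had log2 differences of 1.01 ± 0.29 and 1.20 ± 0.29 with much the same size in both experiments (1.02 and 1.01 for TCRab CD8aa, 1.35 and 1.05 for TCRgd CD8aa). Vamp2, a vesicle protein of granule fusion, had 0.88 ± 0.36 and 0.53 ± 0.36. The vesicle GTPases Rab7 and Rab11a had 0.48 ± 0.31 in TCRab CD8aa and 0.53 ± 0.32 in TCRgd CD8aa respectively. The inhibitor of granzyme B, Serpinb9, which guards the killer cell against its own enzyme, had signals of 2552 and 764 in TCRab CD8ab, 2849 and 1413 in TCRab CD8aa, and 3994 and 1484 in TCRgd CD8aa. Within each experiment both CD8aa subsets lay above TCRab CD8ab, with mean log2 differences of 0.52 ± 0.30 and 0.80 ± 0.30 that did not pass. The related serpin gene Serpinb6a had 0.18 ± 0.36 and 0.43 ± 0.36.

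Genes whose proteins granzymes are known to cleave gave no call among 13 tested, with medians of -0.14 and -0.16 in the CD8aa subsets against TCRab CD8ab. Ndufs3, a subunit of respiratory complex I, had -0.50 ± 0.30 in TCRab CD8aa, and Hmgb2, a chromatin protein, -0.65 ± 0.29 in TCRgd CD8aa. Set, whose product binds the nuclease that granzyme A frees, and Dffa, the inhibitor of the caspase-activated nuclease, had 0.40 ± 0.29 and 0.37 ± 0.30 in TCRab CD8aa, and the nuclease gene Nme1 had -0.36 ± 0.33 in TCRgd CD8aa. The receptors of cytokines that induce cytotoxic genes gave no call among 8 tested, with medians of -0.35 and -0.29. Ifnar1, a chain of the type I interferon receptor, had -0.72 ± 0.33 and -0.85 ± 0.33. The interleukin 18 receptor chain Il18r1, with 1 array at the floor in each comparison, had -2.03 ± 1.01 and -1.24 ± 1.01. The latter turned between experiments 1 and 2, with -3.34 and 0.85. The interleukin 12 receptor chain Il12rb1 had -0.67 ± 0.41 in TCRab CD8aa, and the interleukin 15 receptor chain Il15ra 0.37 ± 0.35 in TCRgd CD8aa. Among 6 genes of other killing routes, none passed. Fasl, the ligand of the death receptor Fas, chosen after its values were seen, had signals of 4151 and 2941 in TCRab CD8ab, 4018 and 3834 in TCRab CD8aa, and 5117 and 3645 in TCRgd CD8aa. Ifng, the gene of interferon gamma, had log2 differences of -2.20 ± 0.42 in TCRab CD8aa (limma adjusted p = 0.0559 with the block) and -1.01 ± 0.42 in TCRgd CD8aa. The cytokine genes Tnf and Ltb had -3.05 ± 0.92 and -1.51 ± 0.64 in TCRab CD8aa, and -1.87 ± 0.92 and -2.68 ± 0.64 in TCRgd CD8aa. Tnf had 1 array at the floor in each of these comparisons, and its differences are bounds. Its signals in experiments 1 and 2 were 16.6 and 15.1 in TCRab CD8aa, and 15.1 and 84.7 in TCRgd CD8aa. Between the CD8aa subsets none of the 67 genes passed in either fit, and the medians of the 7 lists lay between -0.11 and 0.31.

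**Figure D3:**
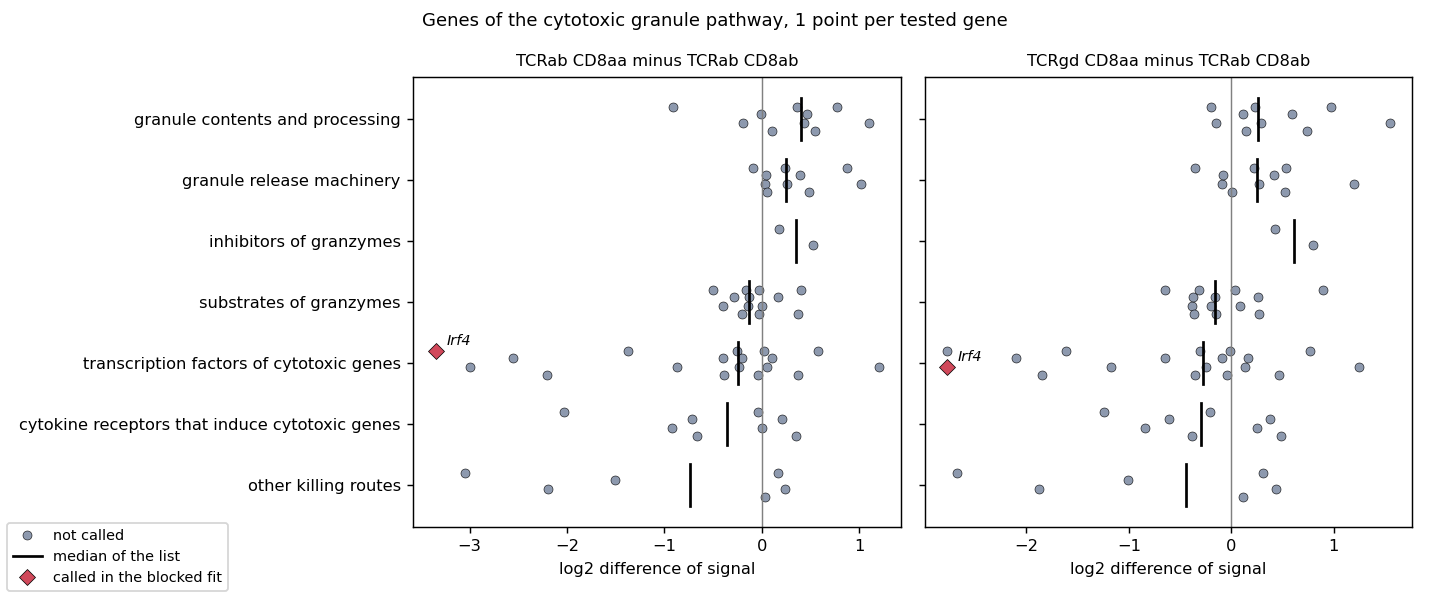
Log2 difference of signal from TCRab CD8ab for the tested genes of 7 lists, with 1 point per gene and a bar at the median of each list; diamonds are genes called in the blocked fit. Irf4 alone is called, at -3.35 in TCRab CD8aa and -2.77 in TCRgd CD8aa.

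Markers of other cells that can hold granzymes or their relatives were low on most arrays. Of the NK cell markers 2 of 6 had a named probe set. The NK receptor gene Ncr1 had signals of 3.6 to 19.9. The other, Il12rb2, also in the list of cytokine receptors above, had signals of 41.8 to 134.9, was tested and passed in no comparison. Of 8 mast cell markers, 3 passed the filter. The summed signal of all 8 lay between 166 and 470 on 5 arrays and reached 1008.0 on the TCRgd CD8aa array of experiment 2. Tpsb2, a mast cell tryptase, had more than 1 probe set, and these differed. The probe set in the sums had signals of 26.9 to 66.6 in experiment 1. In experiment 2 it had 108, 299 and 299 in TCRab CD8aa, TCRab CD8ab and TCRgd CD8aa. The tested probe set of Tpsb2 was lower in TCRgd CD8aa in experiment 2. Its log2 differences in experiments 1 and 2 were 0.22 and -1.27 from TCRab CD8ab, and -0.39 and -1.07 from TCRab CD8aa. The chymase gene Cma1 had signals of 24.0 to 85.5, and Mcpt4 and Tpsab1 had 2.0 to 15.5 and 2.4 to 8.9. The part of any of these in the granzyme signals was not tested. The 7 T cell markers on the array had summed signals of 61708 to 72555 in experiment 1 and 35421 to 40746 in experiment 2.

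The genes with the profile most like that of Gzmk were sought over the 6 arrays, after subtracting from each log2 value the mean of its experiment. Candidates were the 1492 tested probe sets of 1 symbol with a range at least 50% of that of Gzmk. Traf1, an adaptor of receptors of the TNF family, had a Pearson's r of 0.999, Igbp1, a binding partner of phosphatase 2A, 0.991 and Tspan31, a tetraspanin, 0.987. The arrays share their pools and the subtracted mean within an experiment, and these values are descriptions of 6 arrays. Against TCRab CD8ab, Traf1 had log2 differences of -1.87 ± 0.36 for TCRab CD8aa and -1.23 ± 0.36 for TCRgd CD8aa (SE of the blocked fit, n = 2), neither of which passed (limma adjusted p of 0.0585 and 0.323 with the block). By the same measure the closest to Gzma were Plk3, Plod3 and Gbf1 (r of 0.999, 0.996 and 0.996), to Gzmb Krt86, Anxa4 and Tmem30b (0.991, 0.987 and 0.983), and to Prf1 Sppl2b, Mybph and Cma1 (0.996, 0.994 and 0.989). Cma1 is one of the mast cell markers above. For the dimmer members they were R3hcc1, Kars and Fes for Gzmc (0.982, 0.972 and 0.956), and Mtr, Lmbr1l and Otp for Gzmg (0.995, 0.994 and 0.993). After the subtraction Gzmb, Krt86, Anxa4 and Tmem30b were each highest on the TCRgd CD8aa array of experiment 2, which had raised enterocyte markers. The part of those markers in the likeness was not tested.

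**Figure D4:**
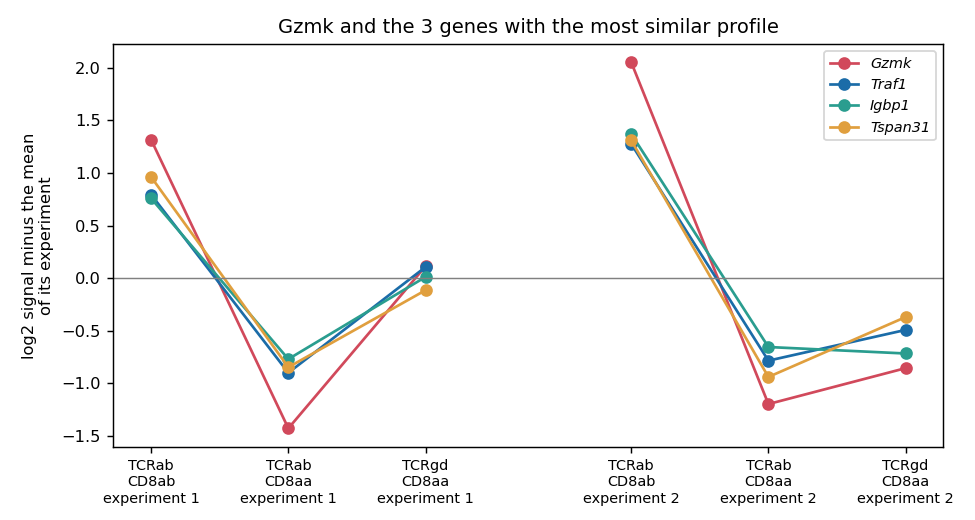
Log2 signal minus the mean of its experiment on the 6 arrays for Gzmk and the 3 genes with the highest r to it. In both experiments all 4 genes are highest in TCRab CD8ab, and Gzmk reaches 1.31 and 2.05 there.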

How the data were processed

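RNA of each sorted pool was labelled by in vitro transcription with biotinylated nucleotides and hybridised to 1 array per sample, per the labels' protocols. The authors deposited MAS5 signal intensity (version not given in the sources used here), 1 value per probe set and array on a linear scale; per the file's values each array had a 2% trimmed mean of about 500.4, and each was scaled here to their common mean. Detection calls and genome build are not given in the sources used here. Of 12488 probe sets, 66 were controls; of the others 10833 had 1 gene symbol, 396 several and 1193 none in the annotation. Signals under the 20th percentile were raised to it before taking log2. The 8299 probe sets above the 40th percentile on at least 2 arrays were fitted with limma 3.58.1 in R 4.3.3 (lmFit, eBayes with trend, all 6 arrays), with Benjamini-Hochberg adjustment over all of them and a threshold of 0.05. The main fit had no term for the experiment. Equal replicate numbers mark 1 pool of mice, sorted together, per the series design, so the fit with the experiment as a block is printed beside it. Differences between experiments correlated between subsets at 0.618, 0.713 and 0.603 across probe sets. Standard errors are limma's, pooled over the subsets. For comparisons of subsets, the p-values of the fit without the block take in the spread between pools. Those of the blocked fit do not, and measure how far a subset difference varied between the 2 experiments. The median residual SD over all tested probe sets was 0.709 without the block and 0.386 with it. Each subset had only 2 arrays, so precision is low in either fit. RefSeq promoters were found for all 9 named genes.

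The members, gene lists and tests were chosen with earlier results of these data known. All member probe sets are named; of each pathway list, the genes called in either fit, otherwise up to 3 with the smallest blocked p, for the comparisons with TCRab CD8ab. The genes printed from the marker lists, and Eomes, Myb, Prdm1 and Runx1, were chosen after their values were seen. Other settings tried were other scaling, floors, filters, an added constant of 16, no trend, only the arrays compared, a threshold of 0.10, each array left out, and each of these with the block.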

Additional observations from a re-analysis of the deposited data

How the results depend on the processing

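With the replicate block 1 of the 6 tested members (Gzmk) was called in TCRab CD8aa minus TCRab CD8ab, against 0 without it. That count was also 1 with the block together with quantile normalization, no further scaling, either other floor, the added constant, the filter at the 60th percentile, only the arrays compared, or an adjusted p under 0.10, and 0 or 1 when 1 array was left out. In TCRgd CD8aa minus TCRab CD8ab it was 0 with the block and 0 or 1 when 1 array was left out. In TCRgd CD8aa minus TCRab CD8aa it was 0 under every setting run. Between experiments the count of 1 (Prf1) was 0 without the filter or without the trend, and 0 or 1 when 1 array was left out. The 1 called was Gzmk without either TCRgd CD8aa array, and Gzmb after quantile normalization. The sign of Gzmk in each comparison was the same under all 31 settings. Of all probe sets the block called 68, 46 and 2 in the 3 comparisons in the order above, 0 without the filter in each, and 6, 3 and 1 without the trend. Leaving out 1 array with the block gave 22 to 182, 30 to 193 and 1 to 114. Only the arrays compared gave 169 in the first comparison, and an adjusted p under 0.10 gave 109; quantile normalization gave 1 in the third. Every fit without the block called 0. Between experiments 2827 were called, and 506 without the filter and 1880 without TCRab CD8aa replicate 2. Leaving out 1 array leaves an arm with a lone sample, which is then assumed to vary like the others, and with the block 1 residual degree of freedom per probe set. The probe sets of Gzmd, Gzmf and Gzmm are limited by signal over background.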
